A study of Mus musculus with 2 samples.

Results

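Ribosomal protein genes were followed across the cells of the fatty mouse liver. Members are the genes whose symbols begin with Rpl or Rps, take the standard numbered or lettered forms, carry no pseudogene suffix, are no S6 kinase gene and reach 1000 UMIs over both libraries. A UMI (unique molecular identifier) stands for 1 captured transcript. Of 27998 genes listed, 87 had such a symbol and 83 reached the minimum, 34 with an Rps symbol and 49 with an Rpl symbol. The member with the fewest UMIs was Rps19bp1 with 2238. The 4 genes left outside were Rpl6l with 490, Rpl3l with 88, Rpl39l with 65 and Rpl10l with 0. Rps19bp1 is included by its symbol but encodes a protein that binds RPS19 and is no ribosomal subunit.

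Ribosomal proteins form the small (40S) and large (60S) subunits of the cytosolic ribosome together with ribosomal RNA, and each subunit normally holds 1 copy of nearly every protein. Their short, abundant mRNAs begin with a run of pyrimidines, the 5′ terminal oligopyrimidine or TOP motif, through which mTORC1 and LARP1 control their translation. Resting lymphocytes are known for a high share of these mRNAs among a small transcriptome, and mature neutrophils for a low one.

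Liver non-parenchymal cells, the immune and other cells left when hepatocytes are removed, were taken from mice fed an MCD diet for 8 weeks. This diet lacks methionine and choline and produces a fatty, inflamed liver. The control library, PKM2FL/FL (FL/FL below), comes from animals whose Pkm gene carries loxP sites. In the second, PKM2ΔMAC (ΔMAC below), the name denotes loss in macrophages of PKM2, a pyruvate kinase isoform. The labels state neither how many animals were pooled nor which Cre line was used. With 1 library per genotype there were no replicates and no test between genotypes, so every difference describes these 2 libraries. All intervals are 95% and stand for counting error alone.

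The FL/FL library held 10054 barcodes and 54519921 UMIs (median 4504.5 per barcode) and the ΔMAC library 8949 and 43134027 (median 3791). Cell filters and doublet calls left 9510 and 8549 cells, of which marker gates assigned 7554 and 6761 to 13 classes. Ungated cells made up 20.6% and 20.9%. Class names carry the ending "-like". In every compared class the class's own markers lay at least 2.37-fold above the summed level of any other class's markers. The gates used these same markers, so this follows in part from the gate and does not check the names. A total of 17 barcodes occurred in both libraries. Pkm, the targeted gene, stood at 258 and 171 CPM (counts scaled to a fixed total of UMIs) over all barcodes in the FL/FL and ΔMAC libraries. In Kupffer-like cells, the resident liver macrophages, it stood at 353 and 143 CPM. Pkm was lower in the ΔMAC library in every other compared class too, such as neutrophil-like (753 and 342 CPM) and T-like cells (233 and 167 CPM). The 3′ tags may lie outside the deleted part, so Pkm does not check the genotype. The non-coding RNA gene Gm42418 also differed, at 1813 and 710 CPM.

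The sequence at the start of the gene is shown first for members with a departure between classes or a difference between libraries, with and without a pyrimidine run. Of the 83 members, 63 matched a start site in RefSeq (build GRCm38.p6), with 74 starts. Each window below has 30 bases, 15 on either side of the annotated start, 5′ to 3′ on the gene's strand, and capitals mark runs of at least 6 pyrimidines.
Rps9 (chr7:3704026-3704055, plus strand): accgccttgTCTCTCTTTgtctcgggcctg
Rps27 (chr3:90213634-90213663, minus strand): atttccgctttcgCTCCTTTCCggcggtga
Rpl12 (chr2:32961697-32961726, plus strand): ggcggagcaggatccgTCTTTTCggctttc
Rpl22l1 (chr3:28805493-28805522, plus strand): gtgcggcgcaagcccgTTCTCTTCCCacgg
Rpl31 (chr1:39367836-39367865, plus strand): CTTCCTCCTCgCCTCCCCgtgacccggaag
Rpl13a (chr7:45128731-45128760, minus strand): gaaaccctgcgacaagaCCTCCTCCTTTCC
Rpl39 (chrX:37085208-37085237, minus strand): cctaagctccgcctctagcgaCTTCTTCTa
Rps19 (chr7:24884577-24884606, plus strand): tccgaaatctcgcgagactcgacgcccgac
Rpl10 (chrX:74270801-74270830, plus strand): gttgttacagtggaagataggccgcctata
Rpl36al (chr12:69184053-69184082, minus strand): cattcccgtcgctcaggttcagttccgact
Rps28 (chr17:33824548-33824577, minus strand): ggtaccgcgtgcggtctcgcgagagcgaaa
Rpl5 (chr5:107900513-107900542, plus strand): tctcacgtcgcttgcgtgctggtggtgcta
The first 7 hold such a run and the last 5 hold none in this window. Members with a run and members without one are found both among those that departed between classes (Rps9 and Rpl31 with, Rps19 and Rpl36al without) and among those described for the library comparison (Rpl13a and Rpl39 with, Rpl5 and Rps28 without). Rps19 has 3 starts in the table, of which the first is shown, and 1 of the other two holds a run. Over the members, 39 of 74 starts (52.7%) held a run of at least 6 pyrimidines, against 29.2% of all 32851 starts in the table. The letters CTTTCC or CTTTTC on the forward strand were found at 20.3% of member starts against 2.44% of all. In the table's stretch before the start, CCGGAAG on either strand was found at 25.7% against 6.91%, and TATAAA on the forward strand at 2.70% against 7.59%. The pyrimidine run and the CTTTCC or CTTTTC letters overlap. These are matches of letters in fixed windows at or before annotated starts. They name no bound factor and do not show whether an mRNA in these cells begins with a TOP motif.

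The share of UMIs from ribosomal protein genes set the cell classes apart far more than it did the libraries. Naive T-like cells, resting T cells with Lef1 and Ccr7, had the highest share, 43.9% in the FL/FL library and 45.2% in the ΔMAC library. All T-like cells together had 36.0% and 39.5%, B-like cells 32.7% and 34.1%, and activated T-like cells 31.8% and 33.2%. NK or ILC1-like cells, the cytotoxic innate lymphocytes, had 29.4% and 29.9%. Among antigen-presenting and phagocytic cells, conventional dendritic (cDC)-like cells had 27.6% and 28.1%, plasmacytoid dendritic (pDC)-like cells 24.1% and 22.5%, monocyte-like cells 23.6% and 23.4% and Kupffer-like cells 20.2% and 19.9%. Endothelial-like cells had 16.9% and 15.8%. Neutrophil-like cells had the lowest share, 6.99% (6.95 to 7.02) and 6.95% (6.91 to 6.99). The order of the 9 compared classes was the same in both libraries except that pDC-like cells stood above monocyte-like cells in the FL/FL library and below them in the ΔMAC library. Among these 9, the highest share was 5.16 times the lowest in the FL/FL library and 5.69 times in the ΔMAC library. The 4 classes with fewer than 50 cells in a library lay between 13.5% (mesothelial-like, ΔMAC) and 23.1% (plasma-like, FL/FL).

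**Figure D1:**
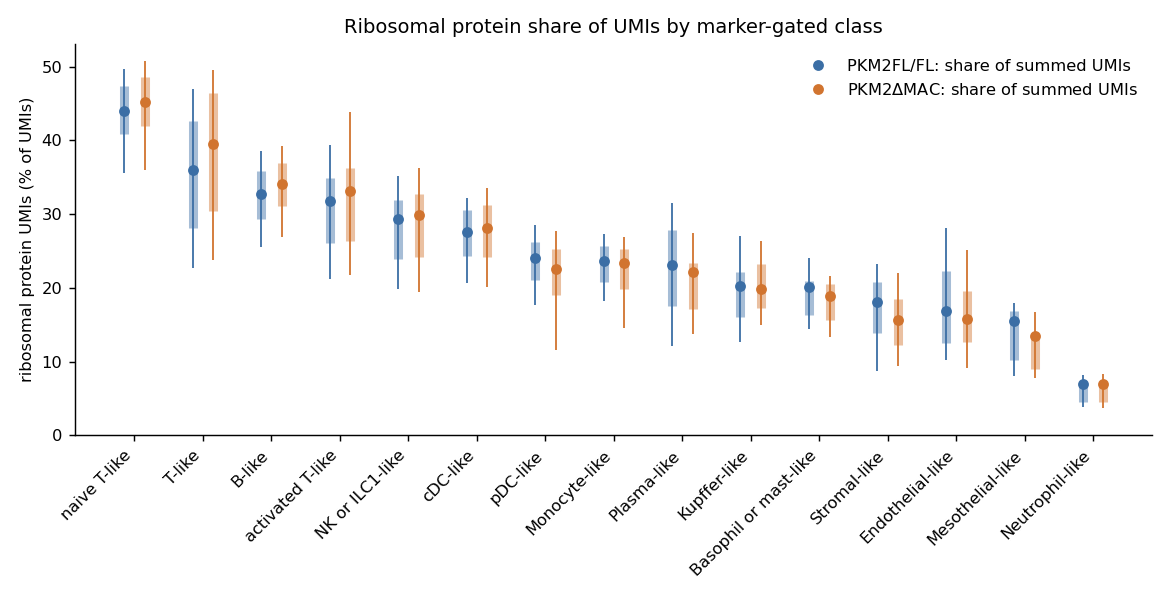
Ribosomal protein UMIs as a percentage of all UMIs (y axis) in 13 marker-gated classes and the 2 T-like subsets (x axis), FL/FL in blue and ΔMAC in orange. Points are the share of the summed UMIs, thick bars the middle 50% of cells and thin bars the 10th to 90th percentile of cells; naive T-like cells stand highest at 43.9% and 45.2% and neutrophil-like cells lowest at 6.99% and 6.95%.

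The balance of the subunits varied less than the total. Genes with an Rps symbol gave 47.4% to 47.5% of ribosomal protein UMIs in B-like cells of the FL/FL library and 46.8% to 47.0% in the ΔMAC library, as the 95% interval. Neutrophil-like cells, with the fewest ribosomal protein UMIs, had 47.8% to 48.4% and 46.6% to 47.2%. Over the 9 compared classes this part ran from 44.3% (pDC-like, ΔMAC) to 48.1% (neutrophil-like, FL/FL).

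The share also moved with the depth of the cell, so depth is given beside it. B-like cells of 2000 to 4000 UMIs had 32.8% in the FL/FL library (1737 cells) and 34.7% in the ΔMAC library (1927 cells), but those of up to 1000 UMIs had 10.8% (28 cells) and 12.5% (127 cells). NK or ILC1-like cells had 22.8% and 23.8% at 2000 to 4000 UMIs and 32.2% and 32.5% above 8000 UMIs. Neutrophil-like cells showed another pattern in the summed share, with 5.18% and 5.41% at 2000 to 4000 UMIs. At 4000 to 8000 UMIs they had 11.7% (24 cells) and 10.0% (29 cells). The median of the cells' own shares differed less, at 5.11% and 5.29% in the lower range and 6.23% and 5.24% in the higher one. At 2000 to 4000 UMIs, B, NK or ILC1 and neutrophil-like cells each had at least 361 cells in each library. The order of these 3 classes was that of the pooled values. T-like cells did not keep their pooled place above B-like cells in this range. They had 29.0% (279 cells) and 30.1% (193 cells), below B-like cells. Naive T-like cells there had 38.3% (59 cells) and 39.1% (54 cells), above B-like cells. At 4000 to 8000 UMIs, with 1290 and 936 cells, T-like cells had 36.1% and 39.4% against 34.6% and 35.5% in B-like cells. Above 8000 UMIs they had 38.3% and 41.9% against 30.6% and 30.6% (44 and 19 B-like cells). Fewer transcripts of other genes and more ribosomal protein mRNA cannot be told apart in a share.

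**Figure D2:**
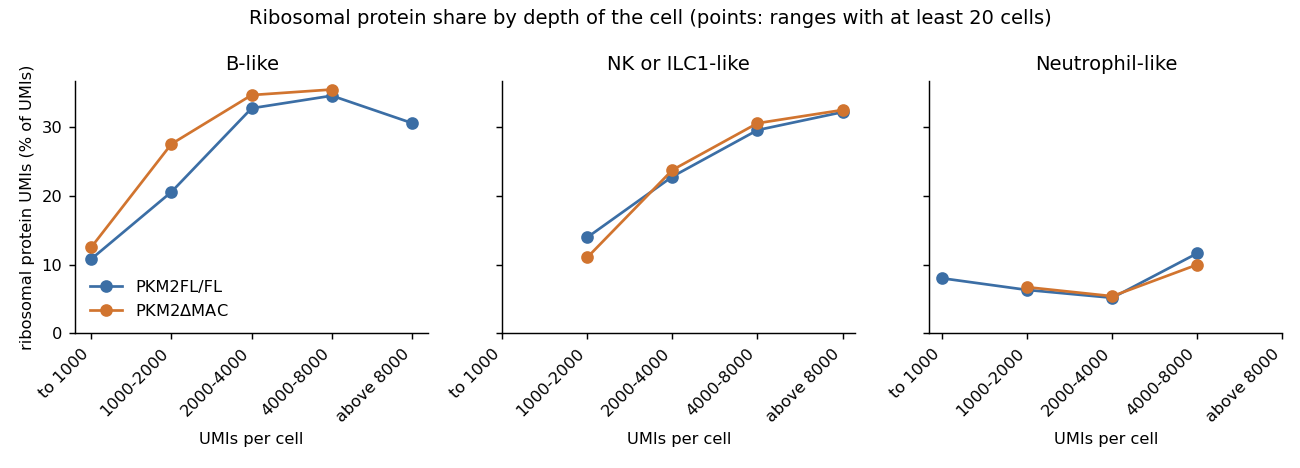
Ribosomal protein share of UMIs (y axis, percent) by UMIs per cell (x axis, 5 ranges) in B-like, NK or ILC1-like and neutrophil-like cells, FL/FL in blue and ΔMAC in orange, for ranges with at least 20 cells. B-like cells climb from 10.8% and 12.5% in the shallowest range to 32.8% and 34.7% at 2000 to 4000 UMIs, while neutrophil-like cells are lowest at 5.18% and 5.41% in that same range.

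Within neutrophil-like cells a few barcodes carried much of the ribosomal protein signal. In the FL/FL library 21 of 714 cells and in the ΔMAC library 14 of 692 had more than 15% ribosomal protein UMIs, with a median of 6914 and 7408 UMIs against 2138 and 2339 in cells at 4% to 8%. These cells carried the T cell gene Cd3e at 178 and 131 CPM and the antigen presentation gene Cd74 at 1820 and 4940 CPM. Cells at 4% to 8% had 11.1 and 4.14 CPM of Cd3e and 243 and 166 CPM of Cd74. Without the cells above 15% the class share was 5.61% and 5.60%. With called doublets kept it was 10.6% and 9.64%, and the highest class share was then 3.40 and 4.10 times the lowest. The part of mixed barcodes in the class value was not tested.

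Single members were then compared per ribosomal protein UMI, which sets aside the share itself. A member's level in a class was divided by the mean of its levels in the other 8 classes, in each library on its own, and a departure was counted where both libraries lay at least 1.3-fold apart in the same direction. Of 747 pairs of member and class, 101 (13.5%) passed. These pairs involved 47 members, and 36 members departed in no class. Rpl31, Rpl36al and Rps9 departed in 6 classes each. A class with a high level enters the mean against which every other class is set. The lower calls of Rpl31 outside pDC-like cells and of Rps9 outside neutrophil-like cells therefore depend in part on that class. They are among the 101 pairs, and the count was not repeated without that class. The order of the 83 members within a class was close between libraries, with Spearman's rho from 0.951 in Kupffer-like cells to 0.979 in monocyte-like cells across members, which share their cells and depth. The background is the same count over all genes with at least 100 UMIs. It depends in part on the class's ribosomal protein share, because all other genes are divided by it too. It did not follow the share alone. Endothelial-like cells had a larger share than neutrophil-like cells but more genes counted as higher, 54.1% against 48.7%. The minimum was not asked of the class itself, and genes unseen in a class were given a fixed count. That count weighs more in classes with few UMIs, and its part in the background was not tested. In T-like cells 72.2% of all genes counted as lower and 4.43% as higher, and in neutrophil-like cells 17.3% and 48.7%. The members' counts are therefore a description and are not read against it.

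The most abundant members departed in at most 2 classes each. Rps24, a small subunit protein, led in B-like cells with 3.49% of ribosomal protein UMIs in the FL/FL library and 3.57% in the ΔMAC library, and ranged down to 2.24% and 2.37% in neutrophil-like cells (B-like over the other classes, log2 0.43 and 0.45). Rpl13, on the large subunit, ranged from 1.53% and 1.6% in neutrophil-like cells (log2 -0.45 and -0.39) to 2.28% and 2.26% in NK or ILC1-like cells. Rpl23, which passed the fold in no class, lay between 1.91% (pDC-like, FL/FL) and 2.43% (endothelial-like, FL/FL). Rpl17 was highest in neutrophil-like cells at 2.67% and 2.38% (log2 0.49 and 0.47). Rplp1, one of the acidic proteins of the stalk that recruits elongation factors, was at 2.45% and 2.67% in T-like cells and 1.40% and 1.49% in monocyte-like cells.

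Among small subunit members, Rps9 had the widest departure upward, in neutrophil-like cells. Rps9 (ENSMUSG00000006333, chr7:3703993-3706897, mm10) encodes a protein of the small subunit body. It made up 6.22% of ribosomal protein UMIs in neutrophil-like cells of the FL/FL library and 5.14% in the ΔMAC library, where it was the most abundant member in both. In B-like, T-like and NK or ILC1-like cells it lay between 1.3% and 1.45%, and in monocyte-like cells at 2.46% and 2.44%. The neutrophil-like level was 3.39-fold the mean of the other classes (log2 1.84 and 1.69). Per all UMIs it stood apart in another way, since Rps9 was at 4347 and 3574 CPM in neutrophil-like cells against 4758 and 4590 CPM in B-like cells, although the summed share of all members was 6.99% against 32.7% in the FL/FL library. It was seen in 99.0% and 98.8% of neutrophil-like cells, and the cell median was 7.63% and 6.19% of a cell's ribosomal protein UMIs. In neutrophil-like cells above 15% ribosomal protein UMIs, Rps9 was at 1.997% and 1.83% of them, against 8.18% and 6.39% in cells at 4% to 8%. The departure was 2.06 on the log2 scale without the cells above 15% and 1.26 with doublets kept. The next coding gene in the 3′ direction, Pirb, lies on the other strand 4511 bases away and was at 419 and 402 CPM in neutrophil-like cells and 22.5 and 20.01 CPM in B-like cells.

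Neutrophil-like cells had the most departures, 8 members higher and 25 lower, with 14 in all when doublets were kept and 41 without the cells above 15%. After Rps9 came Rpl37, a small zinc-binding protein of the large subunit, at 2.12% and 2.52% against 0.762% and 0.958% in B-like cells (2.18-fold over the other classes). Rps27rt followed at 2.15-fold and is described with the near copies. The lowest were Rpl36al (0.413-fold), Rpl10a (0.479-fold) and Rpl3 (0.512-fold). Rpl10a, whose product sits on the L1 stalk where spent tRNA leaves, was at 0.387% and 0.409% in neutrophil-like cells and 0.540% to 0.988% in the other 8 classes. Rpl3, near the peptidyl transferase centre, was at 0.487% and 0.394% there and 0.611% to 1.06% elsewhere. Neither Rpl10a nor Rpl3 overlapped between neutrophil-like cells and any other class. Both were named for their low level in neutrophil-like cells, so this is no separate result.

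Rps19 was the highest departure of B-like cells. It encodes a small subunit head protein that is mutated in Diamond-Blackfan anaemia (ENSMUSG00000040952, chr7:24884371-24889806). It made up 2.46% and 2.43% of ribosomal protein UMIs in B-like cells, 1.77% and 1.84% in T-like cells, 1.88% and 1.75% in cDC-like cells and 1.15% and 1.23% in pDC-like cells. B-like cells lay 1.65-fold above the other classes, and pDC-like cells 0.728-fold. Within B-like cells the middle 50% of cells ran from 2.08% to 2.87% and from 2.02% to 2.83%, above the NK or ILC1-like medians of 1.21% and 1.21%. The next gene on the same strand, 7574 bases on, is the B cell receptor component Cd79a, which was at 2294 and 2190 CPM in B-like cells and at most 149 CPM in any other class. Its part in the Rps19 level was not tested. B-like cells had 5 members higher and 12 lower (background 5.13% and 63.9% of all genes). The other named ones were Rpl12 at 1.45-fold, Rps27 at 1.37-fold, Rpl10 at 0.605-fold, Rps19bp1 at 0.501-fold and Rps27l at 0.255-fold.

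Rpsa, the small subunit protein also known as the laminin receptor precursor, was the sole member higher in cDC-like cells, at 2.13% and 1.88% (1.37-fold). Its lowest level was in neutrophil-like cells at 1.03% and 0.835%. cDC-like cells had 1 member higher and 3 lower (background 5.26% and 58.7%). The lower ones were Rps27rt (0.611-fold), Rps27 (0.685-fold) and Rpl31 (0.692-fold, with the high pDC-like level in the mean).

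Among large subunit members, Rpl31 departed most, in pDC-like cells, the main producers of type I interferon. Rpl31 (ENSMUSG00000073702, chr1:39367842-39371911) encodes a protein at the rim of the exit tunnel. It made up 1.31% of ribosomal protein UMIs in pDC-like cells of the FL/FL library and 1.42% in the ΔMAC library, while the other 8 classes lay between 0.270% and 0.487%. The departure was 4.07-fold, with log2 values of 2.03 and 2.02 in the 2 libraries. Per all UMIs it was 3151 and 3198 CPM in pDC-like cells, 878 and 915 CPM in cDC-like cells and 1028 and 1222 CPM in T-like cells. It was a property of most cells of the class, with a median of 26.5 and 25 Rpl31 UMIs per cell. The 10th percentile of pDC-like cells, 0.729% and 0.694%, lay above the 90th percentile of T-like cells, 0.465% and 0.500%. The gene overlaps Tbc1d8 on the opposite strand, which was at 304 and 205 CPM in pDC-like cells and at most 86.2 CPM in any other class, and whether the counting used strand is not given in the sources used here. The annotation names 24 Rpl31 pseudogenes, the most of any member.

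pDC-like cells had 4 members higher and 1 lower (background 17.4% and 30.4%). After Rpl31 came Rpl36al (1.69-fold) and Rpl10 (1.55-fold). Rpl10, which helps to shape the site where tRNA enters, was at 2.29% and 2.40% in pDC-like cells, 2.14% and 2.25% in monocyte-like cells, 0.946% and 1.09% in B-like cells and 0.991% and 1.10% in T-like cells. B-like and T-like cells held the low end for Rpl10, their levels overlapped each other, and NK or ILC1-like cells had 1.48% and 1.52%.

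Rpl12 ran the other way. Rpl12, at the base of the stalk, was at 1.62% and 1.43% in T-like cells, 1.46% and 1.27% in B-like cells, 1.18% and 1.10% in NK or ILC1-like cells, 0.657% and 0.580% in monocyte-like cells and 0.721% and 0.557% in neutrophil-like cells. T-like cells lay 1.66-fold above the other classes and monocyte-like cells 0.600-fold. The lymphocyte classes did not overlap with the monocyte-like or neutrophil-like levels. Rpl12 was named for its levels in B-like, T-like and monocyte-like cells, so this is no separate result. T-like cells had 2 members higher, Rpl12 and Rplp1 (1.32-fold), and 9 lower. Rplp1 passed by little and did not pass with doublets kept (log2 0.37) or under the stricter gate (log2 0.37).

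The stalk proteins departed apart from each other. Rplp0, the stalk's anchor, was highest in monocyte-like cells at 2.23% and 1.95% (1.48-fold) and lowest in endothelial-like cells at 1.16% and 0.901% (0.663-fold). In monocyte-like cells Rplp1 was low (0.695-fold), as were Rpl12 and Rpl13a (0.704-fold), while Rpl36al (1.58-fold) and Rpl10 (1.43-fold) were high. Monocyte-like cells had 3 members higher and 5 lower (background 6.67% and 44.3%).

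**Figure D3:**
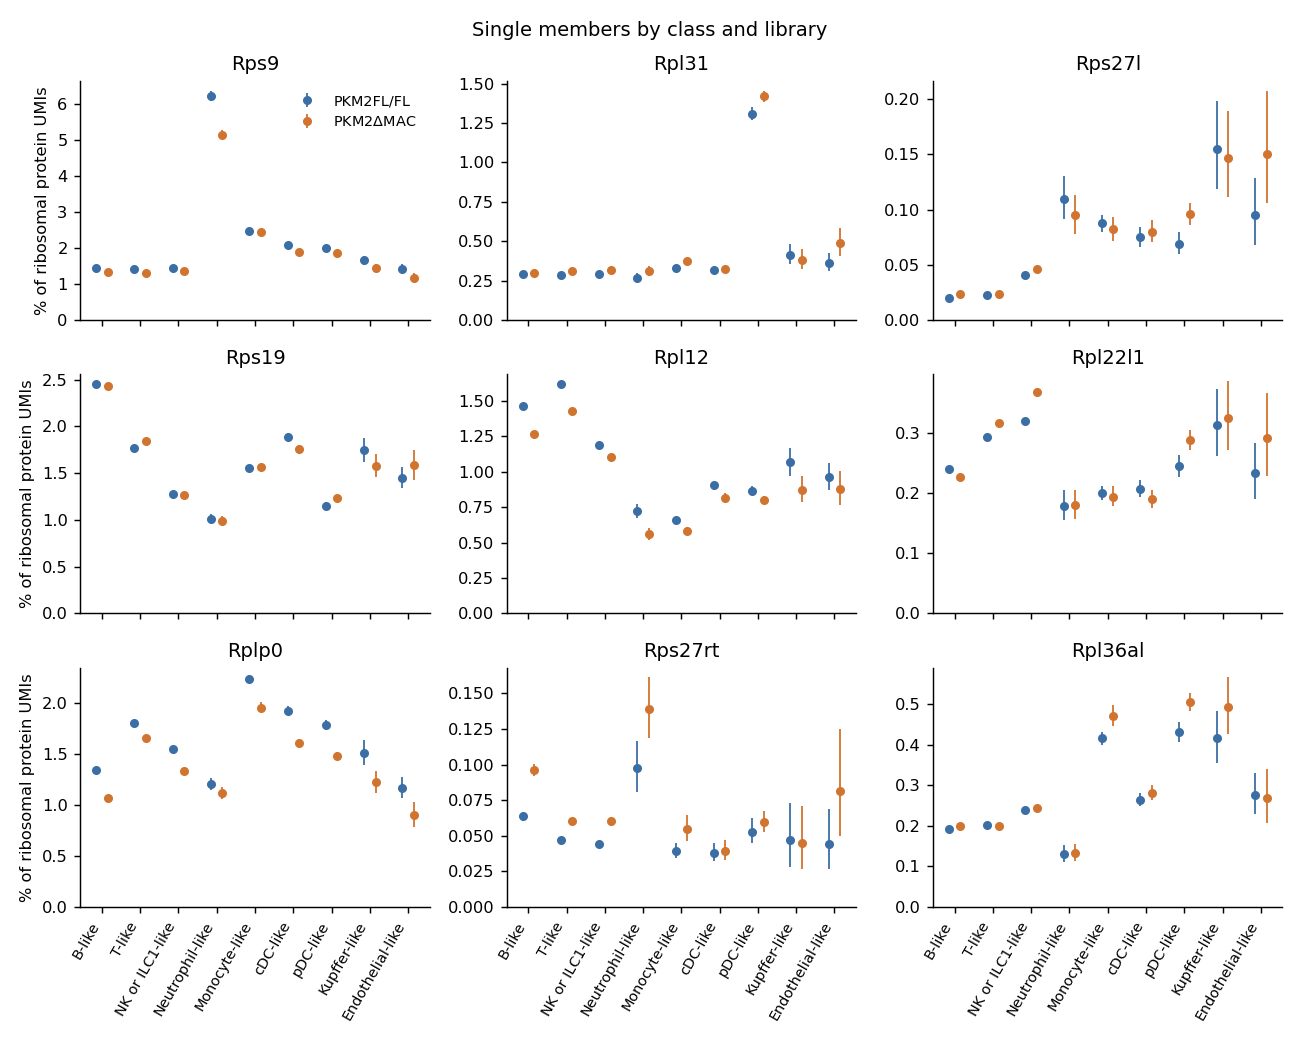
Level of 9 members as a percentage of ribosomal protein UMIs (y axes) in the 9 compared classes (x axes), FL/FL in blue and ΔMAC in orange, with 95% counting intervals. Rps9 stands out in neutrophil-like cells (6.22% and 5.14%), Rpl31 in pDC-like cells (1.31% and 1.42%), Rps19 in B-like cells (2.46% and 2.43%), and Rps27l is lowest in B-like and T-like cells.

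The near copies are genes that resemble another member, and each had its own pattern over the classes. Rps27l is a p53-responsive relative of Rps27. Its coding sequence has the same 252 bases in length as that of Rps27 and differs at 60 of them (76.2% identity), and the lines below, from the GENCODE M21 transcripts without the stop codon, show both with the differing bases in capitals, since these differences are what lets reads in the coding part be told apart.
Rps27: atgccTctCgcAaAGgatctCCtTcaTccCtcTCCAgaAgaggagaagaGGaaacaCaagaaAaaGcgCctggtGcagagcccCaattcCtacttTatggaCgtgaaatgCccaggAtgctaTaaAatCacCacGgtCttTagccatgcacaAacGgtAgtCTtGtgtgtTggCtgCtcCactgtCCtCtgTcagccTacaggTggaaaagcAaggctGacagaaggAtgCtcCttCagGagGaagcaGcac
Rps27l: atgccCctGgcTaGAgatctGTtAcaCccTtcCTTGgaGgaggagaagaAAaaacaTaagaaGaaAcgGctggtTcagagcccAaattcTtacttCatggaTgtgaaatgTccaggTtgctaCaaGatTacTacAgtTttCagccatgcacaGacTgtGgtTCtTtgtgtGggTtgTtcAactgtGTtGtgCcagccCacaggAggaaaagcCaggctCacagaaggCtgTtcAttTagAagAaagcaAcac
The differing bases are spread along the whole coding sequence, with shared stretches between them.

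Rps27l was at 0.0199% and 0.0240% of ribosomal protein UMIs in B-like cells, 0.0224% and 0.0239% in T-like cells and 0.0407% and 0.0460% in NK or ILC1-like cells. It was at 0.155% and 0.147% in Kupffer-like cells, on 63 and 59 UMIs. B-like cells lay 0.255-fold, T-like cells 0.271-fold and Kupffer-like cells 2.17-fold to the other classes. Rps27 itself was at 2.27% and 2.52% in B-like cells, 3.20% and 3.25% in neutrophil-like cells and 1.14% and 1.52% in Kupffer-like cells. The 2 genes departed in opposite directions in B-like cells (mean log2 -1.97 for Rps27l and 0.45 for Rps27) and in Kupffer-like cells (1.12 and -0.52, where Rps27 did not pass the fold in both libraries). In T-like cells (-1.89 and -0.12), NK or ILC1-like cells (-0.94 and -0.24) and neutrophil-like cells (0.43 and 0.97) their signs were the same. The B-like levels of Rps27l were below those of each of the 7 classes outside the T-like and B-like cells. Rps27l was the lowest departure of B-like cells, so this is no separate result.

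Rps27rt cannot be set apart from Rps27 in the same way, since their coding sequences are identical over all 252 bases, so its counts are uncertain. It was at 0.0972% and 0.139% in neutrophil-like cells, 0.0637% and 0.0961% in B-like cells and 0.0381% and 0.0395% in cDC-like cells. Both Rps27rt and Rps27 were higher in neutrophil-like and B-like cells than in cDC-like cells in each library.

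Rpl36al, a relative of Rpl36a with 87.7% coding identity (39 of 318 bases differ), was at 0.130% and 0.133% in neutrophil-like cells and about 0.2% in B-like and T-like cells (0.192% and 0.200%, 0.201% and 0.200%). It was at 0.415% and 0.471% in monocyte-like cells, 0.431% and 0.505% in pDC-like cells and 0.415% and 0.493% in Kupffer-like cells, where it was 1.63-fold the other classes. The latter 3 classes did not overlap with the lymphocytes or the neutrophil-like cells. Rpl36al was among the named departures of these 3 classes and of neutrophil-like cells, so this is no separate result.

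Rpl22l1, a relative of Rpl22 that is known from T cell development, was the sole member higher in NK or ILC1-like cells, at 0.320% and 0.368% (1.40-fold). T-like cells had 0.295% and 0.317%, and neutrophil-like cells 0.179% and 0.181%. In NK or ILC1-like cells with cycling genes such as Mki67 and Top2a it was at 0.364% (0.341 to 0.388; 51 cells) and 0.443% (0.416 to 0.472; 57 cells), against 0.317% and 0.360% in the others. Cycling T-like cells had 0.352% and 0.421% (24 and 43 cells), against 0.293% and 0.312%. Cycling cells were above the rest in each of these 4 pairings, and they were deeper, with a median of 12713 to 16881.5 UMIs. The total ribosomal protein share of cycling T-like cells was lower, 29.6% and 27.3% against 36.3% and 40.4%, while that of cycling NK or ILC1-like cells was 29.6% and 28.9% against 29.4% and 30.04%. NK or ILC1-like cells had 1 member higher and 5 lower (background 10.1% and 47.2%). Among the latter were Rps27l (0.521-fold), Rps19bp1 (0.593-fold) and Rps9 (0.633-fold, with the high neutrophil-like level in the mean).

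The scarce members rest on few UMIs. Rpl7l1, a relative of Rpl7, was at 0.0109% and 0.00801% in T-like cells (460 and 310 UMIs, 0.405-fold) and at 0.0277% and 0.0365% in endothelial-like cells on 12 and 9 UMIs (1.57-fold). Rps19bp1 was lower in B-like (0.501-fold) and T-like cells (0.390-fold), and its 2.39-fold and 2.43-fold levels in Kupffer-like and endothelial-like cells rest on 9 to 11 UMIs a library. With at least 100 UMIs asked of the class itself, 96 pairs of member and class passed in place of 101. Kupffer-like cells had 6 members higher and 1 lower (background 28.8% and 23.4%). The lower one was Rps9 (0.709-fold, with the high neutrophil-like level in the mean). Endothelial-like cells had 8 higher and 2 lower (background 54.1% and 10.1%). The lower ones were Rps9 (0.584-fold, again with the neutrophil-like level in the mean) and Rplp0. Among the higher in endothelial-like cells was Rps27l (1.63-fold). Kupffer-like and endothelial-like cells had the fewest ribosomal protein UMIs of the compared classes. The fixed count given to unseen genes therefore weighs most on the backgrounds of these classes, and its part was not tested.

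Within T-like cells, per ribosomal protein UMI, naive cells differed from activated ones in 3 members, all lower and all among the scarce ones. The background was 77.3% lower and 1.28% higher. Naive cells had the larger ribosomal protein share, 43.9% and 45.2% against 31.8% and 33.2%, which lowers their levels on this scale. The part of the share in these 3 differences was not tested. Rps27l was at 0.0122% and 0.0166% in naive and 0.0304% and 0.0330% in activated T-like cells (0.449-fold), Rps19bp1 0.450-fold and Rpl7l1 0.550-fold. No other member passed the fold between naive and activated T-like cells in both libraries.

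**Figure D4:**
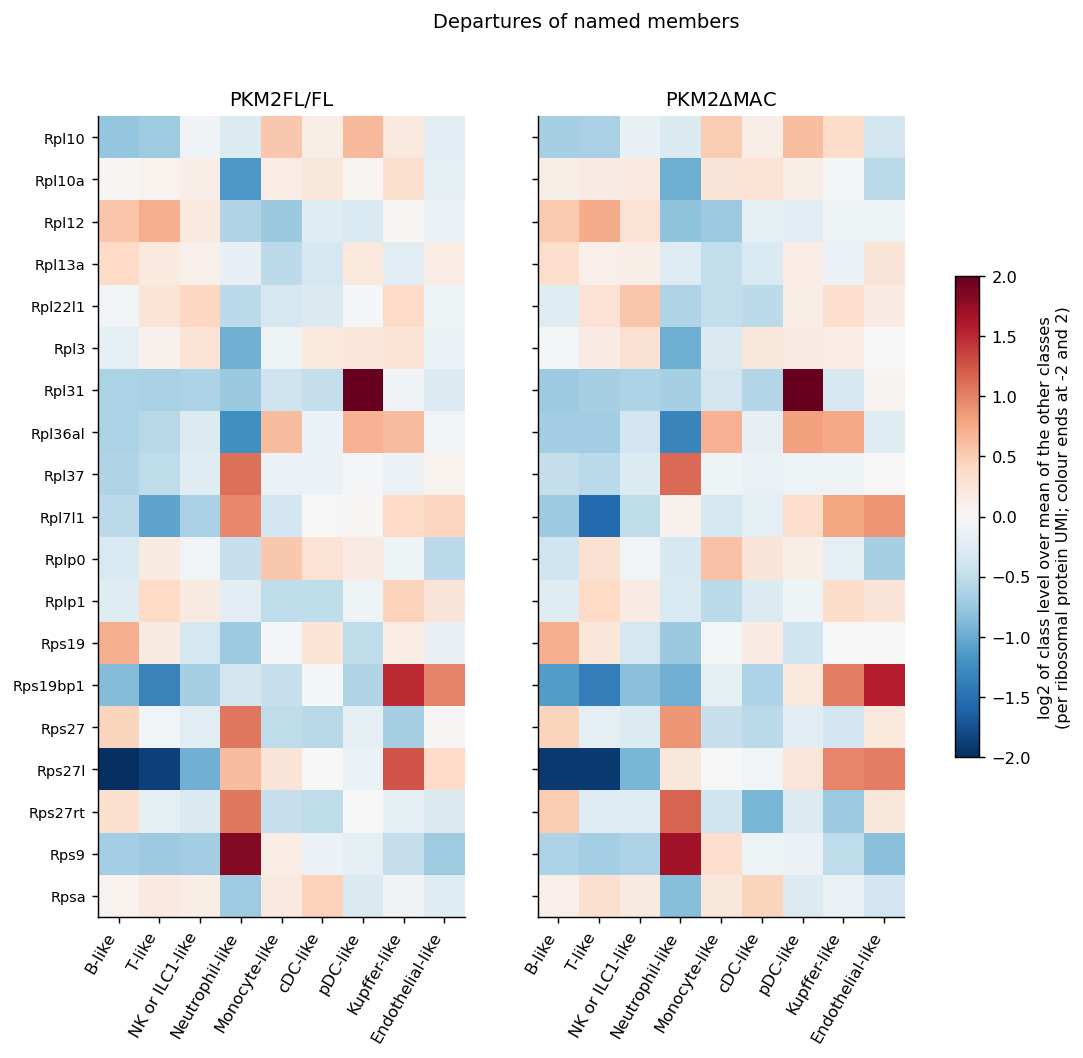
Departures of the 19 named members (rows) in the 9 compared classes (columns), FL/FL on the left and ΔMAC on the right, as log2 of the class level over the mean of the other classes per ribosomal protein UMI. Red is higher and blue lower; Rpl31 in pDC-like cells (2.03 and 2.02) and Rps9 in neutrophil-like cells (1.84 and 1.69) are the strongest red cells, and Rps27l in B-like cells (-2.04 and -1.91) and T-like cells (-1.86 and -1.91) the strongest blue ones.

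Between the libraries the total share differed little. The ratio of the ΔMAC over the FL/FL share ran from 0.934 (0.919 to 0.949) in endothelial-like cells to 1.10 (1.0958 to 1.0989) in T-like cells, with a median of 0.995 over the 9 classes, 4 of them above 1 and 5 below. Kupffer-like cells, resident macrophages, had 0.982 (0.969 to 0.996), and monocyte-like cells 0.990 (0.985 to 0.994). The Kupffer-like difference turned to a log2 ratio of 0.05 as the mean of the cells' own shares and in cells thinned to 500 UMIs, and the monocyte-like one to 0.01 under the stricter gate. The T-like ratio came with a different make-up, since naive cells were 32.0% of T-like cells with a subset in the FL/FL library and 47.7% in the ΔMAC library. Within naive T-like cells the ratio was 1.03 and within activated T-like cells 1.04. In endothelial-like cells the median depth was 2044 UMIs in FL/FL and 884 in ΔMAC. The part of depth in that ratio was not tested.

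Few members lay 1.3-fold apart between the libraries in CPM. B-like cells had 6 members higher in the ΔMAC library and 1 lower of 83 (background 6.22% and 13.5% of all genes with 100 UMIs, or 3.94% and 5.18% of genes with 1000 UMIs, in that order below). T-like cells had 7 and 1 of 83 (4.94% and 22.2%, or 2.6% and 10.8%), and NK or ILC1-like cells 2 and 1 of 83 (5.11% and 11.8%, or 2.63% and 4.73%). Neutrophil-like cells had 4 and 5 of 81 measured (4.71% and 39.2%, or 8.41% and 21%), where the median of all genes was -0.28 on the log2 scale and that of the members -0.0044. Monocyte-like cells had 1 and 3 of 82 (11.8% and 13.5%, or 11.3% and 9.29%), cDC-like cells 0 and 1 of 82 (9.95% and 19.7%, or 8.48% and 8.83%), and pDC-like cells 0 and 4 of 82 (15% and 13.7%, or 14.8% and 6.63%). Kupffer-like cells had 1 and 3 of 80 (15% and 15.4%, or 10.8% and 9.46%), and endothelial-like cells 1 and 8 of 79 (20.9% and 14.4%, or 12.7% and 16.4%). In CPM the members' higher counts in B-like and T-like cells lay above the background of genes with 1000 UMIs, but this rested on the scale. Per ribosomal protein UMI, 2 members were higher and 2 lower in B-like cells, and 0 were higher and 3 lower in T-like cells. In T-like cells the members' median was 0.13 and that of all genes -0.14 in CPM, and -0.0014 and -0.28 per ribosomal protein UMI. With a fold of 1.5, 5 pairs of member and class passed in place of 49.

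Per ribosomal protein UMI, 79 members were measured in all 9 classes. Of these 17 were higher in the ΔMAC library in every class and 16 lower in every class. No member passed the fold upward in 1 class and downward in another. The same tally was not made over other genes, so these counts describe the members alone. The classes of a library share its preparation and sequencing, so they do not repeat the comparison.

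Rpl5, which binds 5S ribosomal RNA and restrains MDM2, was the member with the most classes past the fold. It was at 0.796% of ribosomal protein UMIs in the FL/FL library and 0.507% in the ΔMAC library in B-like cells, 0.874% and 0.594% in T-like cells, 0.763% and 0.549% in NK or ILC1-like cells and 0.651% and 0.537% in Kupffer-like cells. The median log2 ratio was -0.47, from -0.65 in B-like cells to -0.28 in Kupffer-like cells, and 8 of 9 classes lay past the fold. Rpl13a, a large subunit protein with a role in silencing inflammatory mRNAs, followed at 1.63% and 1.21% in B-like cells, 1.45% and 1.04% in T-like cells and 1.16% and 0.832% in neutrophil-like cells (median log2 ratio -0.36, past the fold in 4 classes). Rps27rt was higher in the ΔMAC library, at 0.0637% and 0.0961% in B-like cells and 0.0439% and 0.0602% in NK or ILC1-like cells (median log2 ratio 0.45 over 7 classes measured, past the fold in 4). Every measured class had lower Rpl5 and Rpl13a and higher Rps27rt in the ΔMAC library, in Rps27rt with cDC-like and pDC-like intervals that include 0.

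The differences ran with the length of the coding sequence. The 9 members of up to 300 coding bases were all higher in the ΔMAC library by the median over classes (median log2 ratio 0.16), among them Rps28 (207 bases, 0.31), Rpl39 (153 bases, 0.28) and Rps29 (168 bases, 0.26). The members named for length here, and Rps28 and Rpl39 among the sequences above, were picked after their values were seen. Of 18 members of 300 to 400 bases 15 were higher, of 30 members of 400 to 600 bases 12, and of 19 members of 600 to 900 bases 3. The 3 members above 900 bases, Rpl4 (1257 bases, -0.31), Rpl3 (1209 bases, -0.28) and Rplp0 (951 bases, -0.26), were all lower. Rpl15 (612 bases, 0.35) was an exception among the long members. Across the 79 members Spearman's rho was -0.74 and Pearson's r with log2 length -0.68, and rho was -0.43 with transcript length and 0.06 with GC content. Members are not independent replicates, as they share libraries and depth. In CPM, in genes with at least 1000 UMIs, rho with coding length for members was between -0.43 (endothelial-like, 31 members) and -0.78 (NK or ILC1-like, 81 members). For the other genes it was between -0.07 (endothelial-like, 23 genes) and -0.45 (Kupffer-like, 30 genes). In the classes with at least 199 other genes it ran from -0.21 (cDC-like) to -0.34 (pDC-like). Median depth over all barcodes was lower in the ΔMAC library, but not in every class. It was higher there in T-like (5551 and 5968 UMIs), neutrophil-like (2177 and 2359) and Kupffer-like cells (1072.5 and 1094). The other compared classes were shallower in the ΔMAC library. The part of depth, library preparation or genotype in this trend was not tested.

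**Figure D5:**
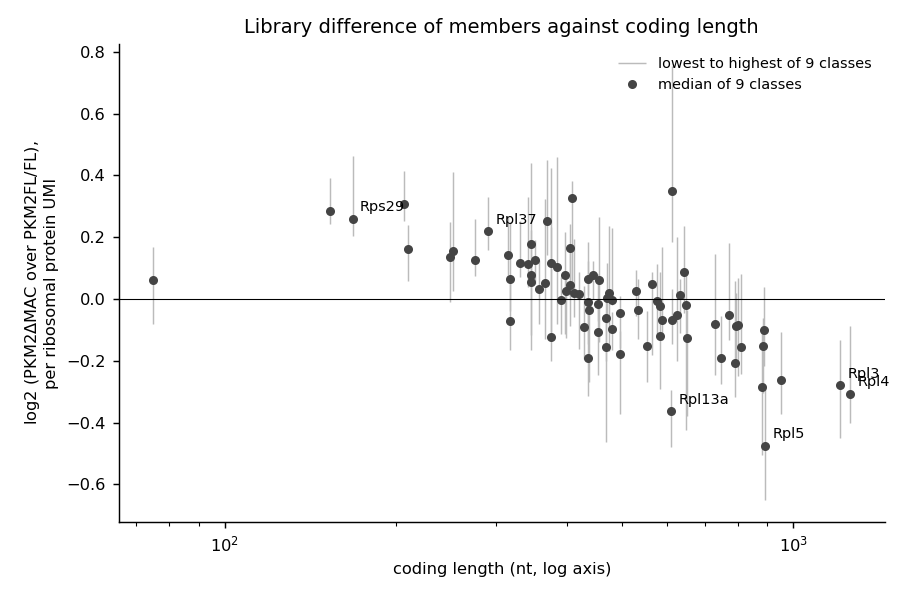
Log2 ratio of the ΔMAC over the FL/FL library per ribosomal protein UMI (y axis) against coding length in bases (x axis, log scale) for the 79 members measured in all 9 classes. Points are medians over classes and grey lines run from the lowest to the highest class; the 9 members of up to 300 bases lie above 0 and the 3 above 900 bases below it, with Rpl5 lowest at -0.47.

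Other lists of the translation machinery were followed beside the members. Translation factors and other TOP mRNAs (21 genes) were also highest in T-like cells, at 4.48% and 4.22% of UMIs, and lowest in neutrophil-like cells, at 1.45% and 1.32%. B-like cells had 3.97% and 3.65%. They were lower in the ΔMAC library in each of the 9 classes by the list's median, from -0.03 in T-like cells to -0.33 in endothelial-like cells (log2). Relative to all genes the direction was not shared. In T-like cells the median of all genes was lower still, at -0.14, in neutrophil-like cells it was -0.28 like the list's, and in endothelial-like cells it was 0.04. Past the fold, 1 gene was higher and 1 lower of 21 in B-like cells, and 1 and 7 of 16 measured in endothelial-like cells. Of all genes, 6.22% were higher and 13.5% lower in B-like cells, and 20.9% and 14.4% in endothelial-like cells. Eef1a1, which delivers tRNA to the ribosome, was at 7669 and 6111 CPM in B-like cells and 6255 and 4555 CPM in Kupffer-like cells. Tpt1, a TOP mRNA for a growth-related protein, was at 10328 and 9220 CPM in B-like cells and 4124 and 3568 CPM in neutrophil-like cells. Fau, which encodes the small subunit protein eS30 fused to a ubiquitin-like part and lies outside the symbol rule, was at 8717 and 9056 CPM in B-like cells and at 5279 and 5514 CPM in neutrophil-like cells. T-like cells had 6119 and 6077 CPM of Fau, so its level differed less between these classes than the summed members did.

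Ribosome biogenesis genes (28 genes) had 0.192% and 0.190% of UMIs in B-like cells, 0.222% and 0.208% in NK or ILC1-like cells and 0.0597% and 0.0419% in neutrophil-like cells. In T-like cells 5 of 28 were higher in the ΔMAC library and 0 lower (median log2 ratio 0.15, against -0.14 over all genes, of which 4.94% were higher and 22.2% lower). Naive T-like cells were 32.0% of T-like cells with a subset in the FL/FL library and 47.7% in the ΔMAC library. They had 8 higher and 0 lower of 27 (median 0.22, against -0.05 over all genes). Activated T-like cells had 1 higher and 1 lower of 28 (median 0.05, against -0.08 over all genes). The share of all genes past the fold was not counted in these subsets. The median was below 0 in NK or ILC1-like cells (-0.11, with 1 higher and 2 lower) and in neutrophil-like cells (-0.66, with 0 higher and 3 lower of 5 measured). Of all genes, 5.11% were higher and 11.8% lower in NK or ILC1-like cells, and 4.71% and 39.2% in neutrophil-like cells. Ncl, the nucleolar protein nucleolin, was at 598 and 594 CPM in T-like cells and 186 and 115 CPM in neutrophil-like cells. Nop10 and Nop56, of the small nucleolar particles that modify ribosomal RNA, were at 191 and 225 CPM and at 171 and 191 CPM in T-like cells.

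Genes of mTORC1 and TOP mRNA control (14 genes) were scarce, at 0.0541% to 0.0885% of UMIs in the 9 classes. Rheb, the activator of mTORC1, was at 117 and 117 CPM in B-like cells and 169 and 164 CPM in neutrophil-like cells. Larp1, the TOP mRNA binding protein, was at 126 and 113 CPM in T-like cells and 21.7 and 11.9 CPM in neutrophil-like cells. Myc, a driver of ribosomal protein genes, was at 193 and 245 CPM in B-like cells, 75.5 and 90.1 CPM in T-like cells and 9.95 and 7.94 CPM in neutrophil-like cells. In B-like cells 1 of 14 was higher in the ΔMAC library and 2 lower, against 6.22% and 13.5% of all genes.

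Mitochondrial ribosomal proteins (77 genes), which build the separate ribosome of the mitochondrion, did not share the order of classes, though neutrophil-like cells were again lowest. They had 0.283% and 0.296% of UMIs in B-like cells, 0.219% and 0.237% in neutrophil-like cells and 0.447% and 0.477% in Kupffer-like cells, the highest of the 9 classes. In pDC-like cells 19 of 46 measured were higher in the ΔMAC library and 2 lower. Of all genes in that class, 15% were higher and 13.7% lower. The list's median log2 ratio was 0.29, against 0.00 over all genes and -0.08 for the cytosolic members. Mrpl33, a small protein of the mitochondrial large subunit, was at 899 and 1228 CPM in neutrophil-like cells and 66.2 and 81.4 CPM in B-like cells. Mrpl52 was at 46.3 and 42.5 CPM in neutrophil-like cells and 224 and 231 CPM in monocyte-like cells, and Mrpl30 at 59.1 and 57.8 CPM and 164 and 167 CPM. Mrpl33 was higher in neutrophil-like than in monocyte-like cells (421 and 445 CPM), and Mrpl52 and Mrpl30 were lower.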

How the data were processed

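The deposited values are raw UMI counts for each gene in each barcode. The file headers name Cell Ranger 6.0.0, and the submitters' processing notes name the build mm10 and Seurat 4.3.0. Barcodes with at least 300 genes and under 20% mitochondrial UMIs were kept (64 and 72 failed), and Scrublet (scanpy 1.11.5, expected rate 0.08) marked doublets in each library (480 and 328, or 4.80% and 3.69%). A cell entered a class with at least 3 of that class's markers and 2 more than of any other; 101 of 105 listed markers were among the genes listed. Free RNA was not subtracted. Sums of UMIs per class and library are given as shares, CPM or per ribosomal protein UMI, with exact binomial intervals for shares and exact conditional intervals for ratios. Comparisons took in the classes holding 50 or more cells in both libraries. Genes needed 100 UMIs, and a count of 0 was set to 3. Members were named by a rule: the 5 most abundant, the 3 highest and 3 lowest departures of each class, those past the fold in at least 3 classes between libraries, the near copies and the 3 most abundant of each list. The members and lists were chosen with earlier results of these data known. Positions and coding lengths come from GENCODE M21, start sequences from RefSeq (GRCm38.p6). The scripts were tested on simulated data. Calculations used Python 3.11.15 with pandas 2.3.3, scipy 1.17.1 and numpy 2.4.6, and figures matplotlib 3.10.9.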

Additional observations from a re-analysis of the deposited data

How the results depend on the processing

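No paired analysis was possible because each genotype has 1 library. The alternatives were a mitochondrial limit of 10%, at least 500 genes per cell, doublets kept, a gate of 4 markers with a lead of 3, members without the near copies and Rps19bp1, a denominator without mitochondrial, immunoglobulin, haemoglobin, Malat1, Gm42418 and Gm26917 UMIs, the mean of the cells' own shares, cells thinned to 500 UMIs (no cell had fewer), a fold of 1.5, no UMI minimum beyond 1 in each library, and levels per ribosomal protein UMI. Leaving out neutrophil-like cells above 15% and asking for 100 UMIs in the class itself were added after the data had been seen. The ratio of the highest to the lowest class share (5.16 FL/FL, 5.69 ΔMAC) was 3.40 and 4.10 with doublets kept, 5.53 and 5.90 under the stricter gate, 5.27 and 5.86 with the reduced denominator, 5.65 and 6.19 as the mean of the cells' own shares, 5.63 and 6.15 in thinned cells, and 6.43 and 7.06 without the neutrophil-like cells above 15%. The median log2 library ratio of the share (-0.0078) was -0.024 with doublets kept, 0.014 under the stricter gate, -0.024 with the reduced denominator, 0.017 as the mean of the cells' own shares and 0.011 in thinned cells. The Kupffer-like log2 ratio reversed to 0.047 as the mean of the cells' own shares and to 0.050 in thinned cells, and the monocyte-like one to 0.014 under the stricter gate. With a fold of 1.5, 5 pairs of member and class passed between libraries in place of 49, and 47 between classes in place of 101. Other alternatives kept these counts within 1.5 times. Of the 44 named departures between classes, 0 reversed in 245 recalculated values, and 3 dropped under the fold on the mean of the libraries: Rplp1 in T-like cells (0.37 with doublets kept, 0.37 under the stricter gate) and Rps9 in Kupffer-like cells (-0.36 with doublets kept). The cause was not tested. Depth limits the Kupffer-like and endothelial-like classes, with 122 and 114 and with 61 and 103 cells, in which scarce members rest on about 10 UMIs. Genotype, animal and preparation cannot be told apart with 1 library each.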
